A study of Mus musculus with 15 samples.

Results

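The genes of 10 Krüppel-like factors (KLFs), Klf2, Klf3, Klf4, Klf5, Klf6, Klf7, Klf9, Klf10, Klf13 and Klf15, were examined for acetylation of histone H3 at lysine 27 (H3K27ac), a mark of active promoters and enhancers. A KLF locus was the RefSeq span of the gene with 50 kb either side, and each peak in it was placed at the promoter (within 2 kb of a start site), in the gene body or in the flank. The 10 loci held 176 of the 122375 peaks in the list, and no peak fell in more than 1 locus. Peaks were assigned to loci by position alone, with no measured value. The genes and the comparison lists were chosen with earlier results of these data known.

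The libraries came from a pair of mouse models of fusion-positive rhabdomyosarcoma, a muscle-like soft tissue tumor. MCP tumors carried Myf6-Cre, which acts in myogenic cells, and TCP tumors carried Tek-Cre, which acts in endothelial and hematopoietic cells. Both shared Cdkn2a Flox/Flox, the Pax3 allele written Pax(3P3F/P3F) in the labels and P3Fm/P3Fm in the study, which makes PAX3-FOXO1 after recombination, and the R26-tdTom reporter. Tumors were dissociated and sorted for live cells before CUT&RUN, in which a nuclease tethered to an antibody releases the DNA around a mark. Of 15 libraries (6 MCP H3K27ac, 3 TCP H3K27ac, 3 MCP IgG and 3 TCP IgG), 1 had a peak list used here, the library MCP H3K27ac replicate 5. The list was tied to it by the library number in the peak names, which stands in the description of that sample alone. That description numbers the library 1 while its title gives 5, and the list is named for the MCP group, so which tumor it came from, and whether other libraries were pooled into it, is not settled here. The TCP libraries were not analysed here, so MCP and TCP tumors were not compared, and every value below comes from 1 list with no replicates. Age was not given in the labels.

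KLFs are transcription factors that bind GC-rich and CACCC-type boxes through zinc fingers at the carboxyl end, and they share these sites with the related SP factors. Members differ in the part of the protein outside the zinc fingers, through which some recruit acetyltransferases and activate genes while others recruit the corepressors CtBP or SIN3A. In muscle and vessels they act in differentiation, metabolism and the response to flow, growth factors and steroid hormones.

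Summit sequences of 6 peaks are shown because they held the strongest signal of a locus or a motif counted below. Each is 200 bases of mm10 around a summit, with any match to the motifs listed below in capitals. The Klf6 window held none of the motifs searched. The window of Klf13 held a GC-type KLF/SP box, those of Klf7 and Klf5 a CACCC-type box, that of Klf3 an E-box and that of Klf4 an AP-1 motif.
Klf6 upstream peak, chr13:5841339-5841538, plus strand: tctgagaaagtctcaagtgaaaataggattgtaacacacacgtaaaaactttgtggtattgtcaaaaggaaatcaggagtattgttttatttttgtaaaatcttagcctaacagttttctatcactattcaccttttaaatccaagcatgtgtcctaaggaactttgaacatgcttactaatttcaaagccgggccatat
Klf13 promoter peak, chr7:63939487-63939686, plus strand: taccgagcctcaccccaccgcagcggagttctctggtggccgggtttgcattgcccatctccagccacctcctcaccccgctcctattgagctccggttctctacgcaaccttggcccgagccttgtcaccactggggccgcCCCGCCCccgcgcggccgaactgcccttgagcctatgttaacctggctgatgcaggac
Klf7 intron 1 peak, chr1:64088269-64088468, plus strand: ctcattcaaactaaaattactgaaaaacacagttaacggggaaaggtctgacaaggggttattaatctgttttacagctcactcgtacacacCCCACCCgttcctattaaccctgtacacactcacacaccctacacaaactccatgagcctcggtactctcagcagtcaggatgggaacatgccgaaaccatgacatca
Klf3 intron 1 peak, chr5:64806062-64806261, plus strand: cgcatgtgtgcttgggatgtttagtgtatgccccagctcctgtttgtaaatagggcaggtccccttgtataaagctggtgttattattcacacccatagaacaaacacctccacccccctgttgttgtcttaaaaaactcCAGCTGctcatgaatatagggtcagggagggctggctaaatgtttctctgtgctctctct
Klf4 promoter peak, chr4:55533255-55533454, plus strand: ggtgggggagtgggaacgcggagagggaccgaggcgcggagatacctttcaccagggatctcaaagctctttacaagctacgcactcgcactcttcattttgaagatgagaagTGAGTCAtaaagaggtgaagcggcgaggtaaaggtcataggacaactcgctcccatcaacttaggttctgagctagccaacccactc
Klf5 intron 1 peak, chr14:99301051-99301250, plus strand: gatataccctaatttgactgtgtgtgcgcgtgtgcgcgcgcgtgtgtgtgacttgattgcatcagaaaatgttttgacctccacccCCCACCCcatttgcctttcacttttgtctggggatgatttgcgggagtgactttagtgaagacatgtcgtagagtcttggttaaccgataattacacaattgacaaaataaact

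The 250 bases before the start site of 3 genes are shown as the RefSeq table (GRCm38.p6, the same assembly as mm10) gives them, because Klf7 had the widest peak coverage around its start, Klf4 a single promoter peak and Klf15 none. Capitals mark KLF/SP boxes. Klf7 held 3 CACCC-type boxes, Klf4 held 4 GC-type boxes and Klf15 held 1 GC-type box.
Klf7 promoter, chr1:64121390-64121639, minus strand: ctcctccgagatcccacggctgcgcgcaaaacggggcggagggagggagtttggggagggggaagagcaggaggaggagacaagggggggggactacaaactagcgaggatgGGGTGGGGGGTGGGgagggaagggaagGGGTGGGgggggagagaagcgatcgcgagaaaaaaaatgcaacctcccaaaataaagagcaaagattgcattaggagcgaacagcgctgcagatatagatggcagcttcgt
Klf4 promoter, chr4:55532476-55532725, minus strand: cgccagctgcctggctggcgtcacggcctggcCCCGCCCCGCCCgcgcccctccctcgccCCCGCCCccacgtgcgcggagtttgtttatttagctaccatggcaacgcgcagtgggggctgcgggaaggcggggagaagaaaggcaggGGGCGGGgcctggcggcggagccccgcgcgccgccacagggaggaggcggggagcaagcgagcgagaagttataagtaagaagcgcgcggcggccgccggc
Klf15 promoter, chr6:90462326-90462575, plus strand: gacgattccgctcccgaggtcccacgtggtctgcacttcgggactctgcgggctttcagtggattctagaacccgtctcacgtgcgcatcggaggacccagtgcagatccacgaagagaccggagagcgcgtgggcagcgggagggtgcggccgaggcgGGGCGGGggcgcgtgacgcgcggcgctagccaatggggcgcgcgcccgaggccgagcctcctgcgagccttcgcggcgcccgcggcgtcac

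Peaks were found at the promoters of 9 of the 10 KLF genes, all but Klf15 (90.0%, Wilson 95% interval 59.6 to 98.2%). Of the 21000 protein-coding genes, 45.6% had a promoter peak. KLF promoters are rich in CpG, and of genes with similar promoter CpG content 70.1% had a promoter peak (52.3% for Klf7 and 70.6 to 72.5% for the other 9), a share inside the KLF interval. With at least 4 promoter peaks, 6 KLF genes (Klf2, Klf5, Klf6, Klf7, Klf9 and Klf10) stood against 13.6% of all genes. At least 1 peak anywhere in the locus was found for 9 of 10 KLF genes, against 77.9% of all genes. Gene body peaks outside the promoter were found for 6 of 10 (Klf3, Klf5, Klf6, Klf7, Klf10 and Klf13), against 33.2% of all genes. Among genes of similar span, the share with a gene body peak ran from 6.0% in the group of short genes that holds Klf2 to 65.3% in the group of long genes that holds Klf7.

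The 176 peaks divided into 34 at promoters, 91 in gene bodies and 51 in flanks. Outside the promoters of the KLF genes lay 80.7% of them. Of all peaks in the list, 21.9% lay at the promoter of any gene. Peak strength is given as fold enrichment, as the caller gives it. It is the fragment pileup at a summit over the IgG background expected there, with the same constant added to both. It is therefore smaller than the plain ratio, most of all at low background. Median fold enrichment was 6.13 at the KLF promoters, 5.22 in the gene bodies and 4.79 in the flanks. Over the whole list the medians were 5.49 at promoters and 5.11 elsewhere. KLF promoter peaks had a median width of 282 bp, against 183 bp for all promoter peaks. Gene body peaks had a median width of 150 bp and flank peaks of 169 bp. Over all KLF peaks the median width was 164.5 bp, against 163 bp in the list. Peaks of 1000 bp or more made up 4.545% of the KLF peaks (8 of 176), against 4.74% of the list. The number of fragments behind a KLF peak ran from 7 to 37 with a median of 13, so the value of any single peak is imprecise. Counting intervals on fold enrichment are exact Poisson 95% intervals on these fragments. Peaks with gaps within 5 kb are called a group or chain. The map of peaks by distance shows that promoter, intronic and distant peaks made up different parts of each locus.

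**Figure D1:**
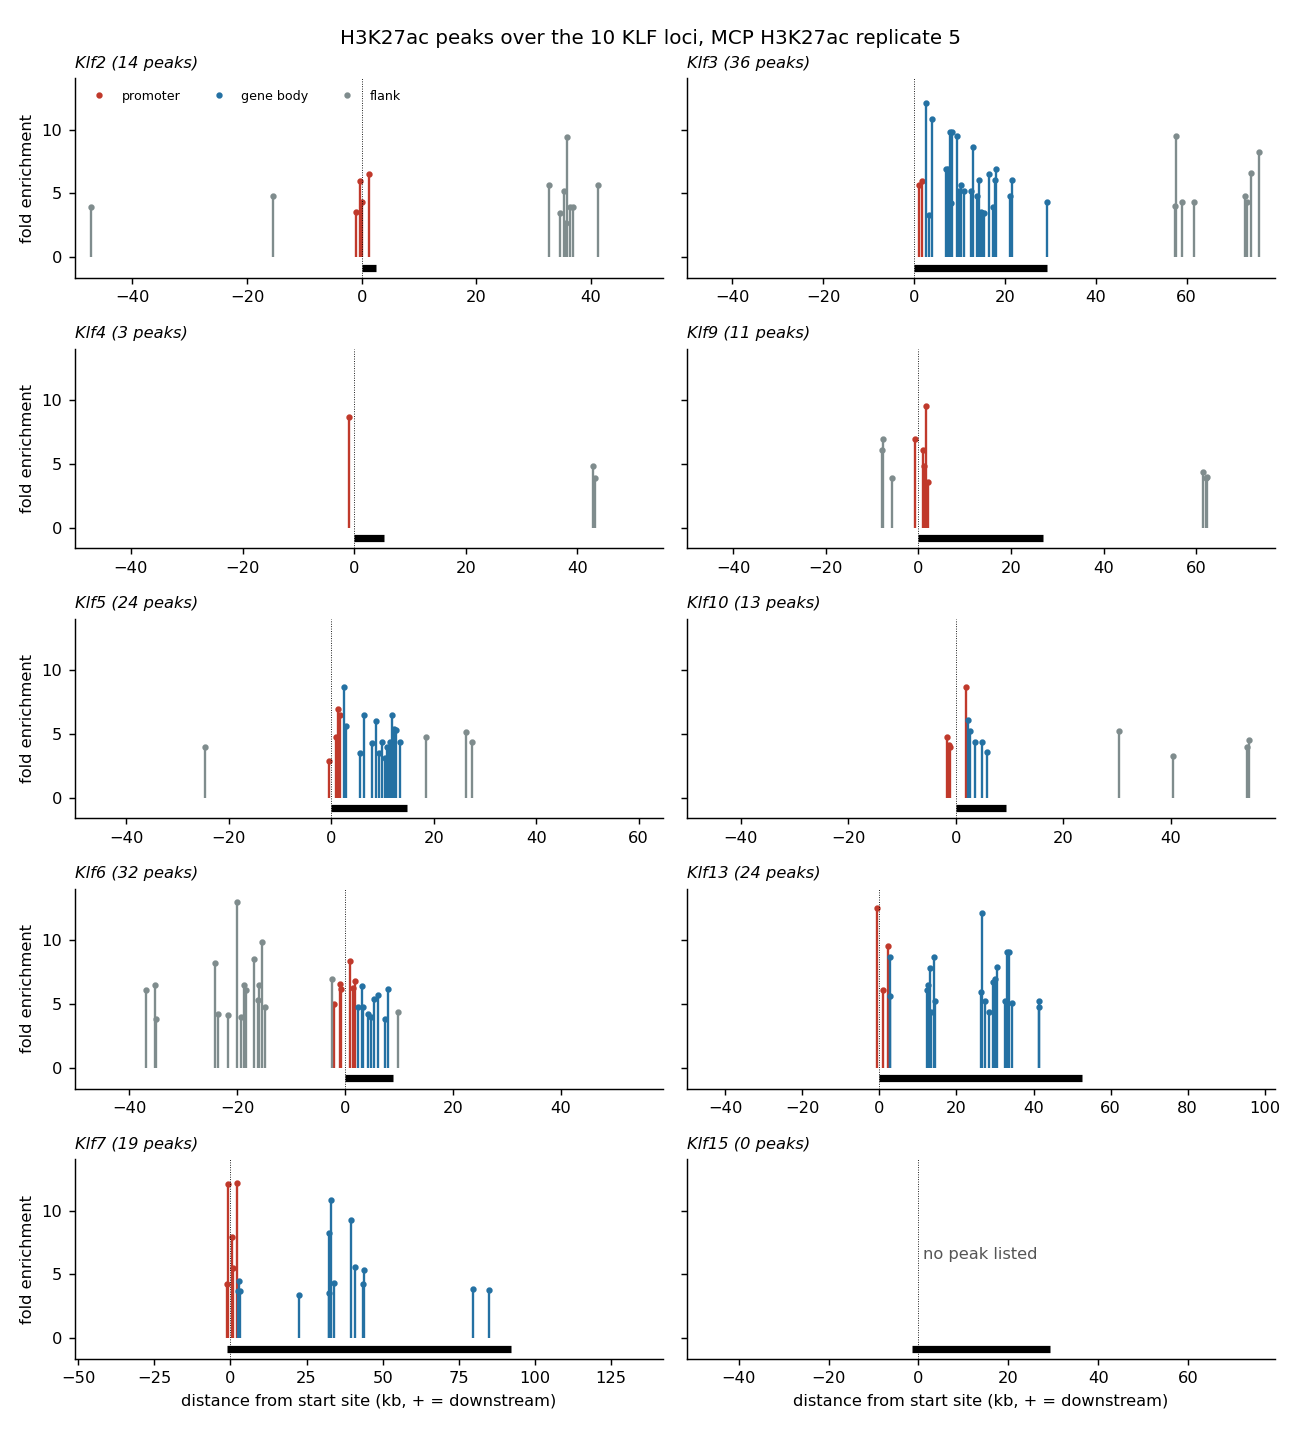
Fold enrichment of each peak (vertical axis) against summit distance in kb from the gene's nearest start site (horizontal axis, positive downstream) at the 10 KLF loci. Peaks are coloured by class, and the gene span is a black bar. Klf3, Klf5, Klf7 and Klf13 carried most peaks inside the gene, Klf6 carried a dense group upstream, and Klf15 had none.

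Activators came first in the order of roles. Klf2, which maintains quiescent endothelium under flow, had 4 promoter peaks with fold enrichments of 3.58, 5.94, 4.36 and 6.51 from upstream to downstream. The strongest rested on 14 fragments and had its summit at +1219 bp, in an intron. One summit lay at +116 bp, the closest of any KLF promoter peak. No peak covered the rest of the short gene. The 10 flank peaks included 8 in introns of the downstream neighbour Eps15l1, at +32.7 to +41.3 kb, which reached 9.43 with 22 fragments at +35.9 kb. That peak was stronger than any at the Klf2 promoter, although its counting interval (6.08 to 14.04) overlapped that of the strongest promoter peak (3.78 to 10.6).

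Klf4, one of the pluripotency reprogramming factors and a regulator of epithelial differentiation, had 1 promoter peak. Its summit lay 880 bp upstream, with a fold enrichment of 8.67 on 19 fragments, inside the AP-1-containing window shown above. The other 2 peaks of the locus lay at +42.7 and +43.2 kb with values of 4.79 and 3.87. Among genes with a promoter peak, its strongest one was at the 68.0 percentile, and at the 47.4 percentile when fold enrichment times width was summed over promoter peaks. The locus had 3 peaks, the fewest among the 9 genes that had any.

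Klf5, which drives proliferation of smooth muscle and epithelial cells, had 4 promoter peaks between 2.90 and 6.94. The intron 1 peak at +2460 bp, just beyond the promoter, reached 8.67 on 19 fragments, and its counting interval (5.41 to 13.3) overlapped that of the strongest promoter peak (4.10 to 11.1). Intron 3, of 9.67 kb, held 14 peaks, and intron 2, of 1.16 kb, held none. A chain of 21 peaks ran from -0.434 to +18.4 kb, with 23.8% of its length inside peaks.

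Klf6, a growth-regulating factor induced after injury, had 6 promoter peaks, the most of the 10 genes, with values of 5.05, 6.58, 6.17, 8.42, 6.28 and 6.84. They covered 40.7% of the 4 kb around the start site. Its locus was the densest, with 17 flank peaks. A group of 12 peaks lay from -24.2 to -14.8 kb (chr13:5836815-5846686) and covered 64.5% of that stretch. Its strongest peak, at -20.1 kb, was 1723 bp wide and had a fold enrichment of 12.97 on 29 fragments, the highest value at any KLF locus. A peak of 1729 bp with a fold enrichment of 8.51 lay at -16.9 kb. RefSeq places the start of the noncoding gene 1700016G22Rik between this group and Klf6, named here after its position was seen. One flank peak, at -2451 bp from Klf6, lay in the promoter window of that gene. It was the only flank peak at any locus to overlap another gene's promoter window. The Klf6 promoter peak with its summit at -2091 bp also overlapped that window and lay nearer that start (1306 bp). Gene body peaks of Klf13 (+41.4 and +41.5 kb) and Klf7 (+79.8 kb) overlapped the promoter windows of Gm27252 and Mir6899.

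Klf7, a factor of neurogenesis and of adipocyte precursors, had 5 promoter peaks and no flank peak. A pair of them were strong, at -811 bp (12.07 on 37 fragments) and +2010 bp (12.14 on 31 fragments). The other 3 reached 4.27, 5.51 and 7.96. Together they covered 56.2% of the promoter window, the largest share among the 10 genes. Intron 1, of 41.6 kb, held 13 peaks, and intron 2, of 36.3 kb, held 2. The intron 1 peaks included 1 at +33.0 kb with 10.82 on 34 fragments, whose sequence is shown above, and 1 at +39.5 kb, 1441 bp wide, with 9.24 on 23 fragments.

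Klf3 recruits CtBP and represses genes in erythroid, fat and muscle cells. Its 2 promoter peaks, at +1057 and +1835 bp, had values of 5.64 and 5.98, and the latter was the lowest strongest-promoter value among the 9 genes. The gene body held 26 peaks, the most of any KLF gene. A chain of 27 peaks ran from +1.06 to +21.6 kb (chr5:64804364-64825202), with 16 peaks in intron 1 and 9 in intron 2 over the whole gene. The strongest, at +2.64 kb, had 12.11 on 27 fragments and was 1132 bp wide, and the next, at +3.96 kb, had 10.82 on 24 fragments. The former (chr5:64805531-64806662) began just beyond the promoter window, so the low promoter value of Klf3 depends on the 2 kb limit. Both promoter peaks also lay in intron 1 and are among those 16. The counting interval of the strongest gene body peak (8.15 to 17.4) overlapped that of the strongest promoter peak (3.41 to 9.88), and other gene body peaks were as low as 3.35.

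Klf9, Klf10 and Klf13 recruit SIN3A and histone deacetylases. Klf9, a target of thyroid hormone and glucocorticoids, had 5 promoter peaks with values of 6.94, 6.08, 4.79, 9.53 and 3.58, the strongest at +1563 bp on 21 fragments. No other peak lay in its intron of 22.4 kb. Its 6 flank peaks comprised 3 from -7.81 to -5.65 kb, reaching 6.94, and 3 from +61.4 to +62.4 kb, reaching 4.36.

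Klf10, an early target of TGF-beta, had 4 promoter peaks. It has 2 start sites, and each distance is from the nearer of them. One downstream peak of 1155 bp at +1988 bp had 8.67 on 19 fragments, and the 3 upstream peaks had 4.01, 4.17 and 4.79. A further 5 peaks lay in the gene body, and 4 flank peaks lay between +30.4 and +54.5 kb.

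Klf13, a factor of lymphocytes and heart muscle, had 3 promoter peaks. The peak at -672 bp, with 12.54 on 28 fragments, was the strongest promoter peak of the 10 genes, and the others had 6.08 and 9.53. The single intron, of 46.2 kb, held 22 peaks. They fell into groups, of which 1 of 6 peaks lay at +12.3 to +14.3 kb (up to 8.67) and 1 of 11 peaks at +26.4 to +34.5 kb (up to 12.11 on 27 fragments). No peak lay in either flank.

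Klf15 is induced by glucocorticoids and controls lipid and amino acid use in muscle. No peak lay within its gene or 50 kb either side, a span of 131 kb, where a count of 0 allows up to 3.69 peaks (upper limit of the exact Poisson 95% interval). The summit nearest to its start site lay 77.8 kb from that site (chr6:90384717-90384809, fold enrichment 5.57 on 12 fragments). Its promoter was in the tenth of genes richest in CpG, where 72.5% of genes had a promoter peak. The weakest peak of the list rested on 7 fragments, so signal below that was not detectable at this depth. Peak names are numbered along the genome, and no number was absent within the Klf15 window or any other KLF window.

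**Figure D2:**
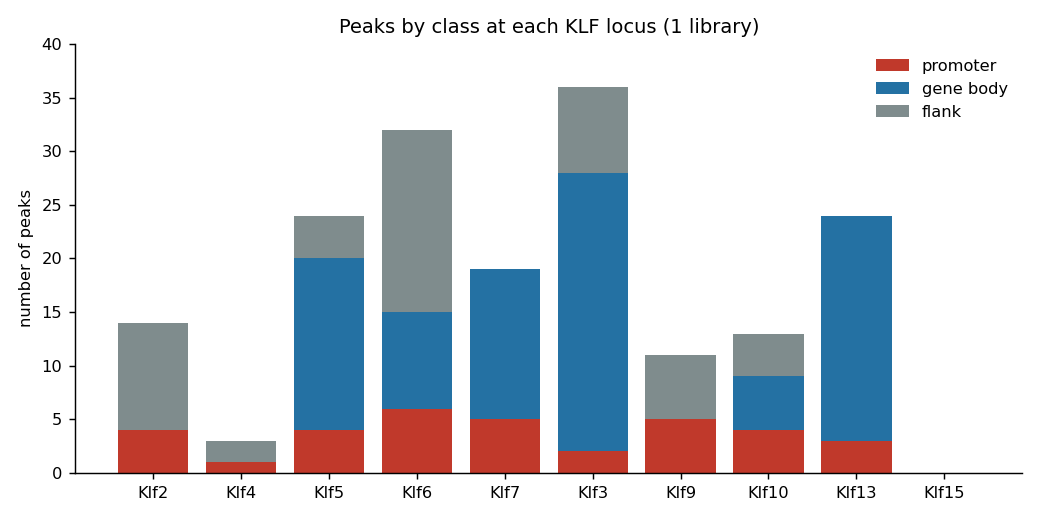
Number of peaks (vertical axis) at each KLF locus, stacked by class, in 1 library. Klf3 had 36 peaks and Klf6 had 32, whereas Klf4 had 3 and Klf15 had 0.

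The stacked counts show how the classes differed in weight. By role, the 5 activators held 20 promoter, 39 gene body and 33 flank peaks, the CtBP repressor Klf3 held 2, 26 and 8, and the 3 SIN3A repressors held 12, 26 and 10. Peaks outside promoters lay in introns in 91 cases, in exons in 8 and between genes in 43, and the shares over the whole list are not given here. Of the 34 promoter peaks, 20 had a summit downstream of the start site (58.8%), a share close to the 59.3% of all promoter peaks.

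No start site of a KLF gene lay inside a peak (0 of 10), and 3.78% of all protein-coding genes had one inside. Among genes with a promoter peak, 8.30% did. The summit nearest to the start lay between 116 bp (Klf2) and 1057 bp (Klf3) away, with a median of 649 bp. For all genes with a promoter peak the median was 353 bp, with quartiles of 182 and 591 bp.

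The strongest promoter peak of the 9 genes ranged from 5.98 (Klf3) through 6.51 (Klf2), 6.94 (Klf5), 8.42 (Klf6), 8.67 (Klf4 and Klf10), 9.53 (Klf9) and 12.14 (Klf7) to 12.54 (Klf13). Their median was 8.67, against 7.24 for the 9569 genes with a promoter peak (quartiles 5.65 and 9.47). With promoters of 1 kb either side the KLF median was 6.94, and the median of all genes at that width is not given here. Klf13 and Klf7 were at the 92.9 and 92.0 percentiles of those genes, and Klf3 was at the 29.9 percentile. The Klf3 peak of 12.11 that begins just beyond the promoter window does not count in its percentile. The counting intervals of all 36 pairs of KLF genes overlapped. At the ends of this order they ran from 3.41 to 9.88 for Klf3 (13 fragments) and from 8.50 to 17.91 for Klf13 (28 fragments). Overlap alone does not show that the values of a pair are equal. Differences between the genes were not tested, so the order is not settled here. When fold enrichment times width was summed over the promoter peaks, 8 of the 9 genes moved by more than 10 percentile points, and Klf7 stayed high at 95.02. Klf6 rose from 65.5 to 87.2, Klf3 from 29.9 to 55.7, Klf5 from 45.9 to 69.6 and Klf10 from 68.0 to 81.4. Klf13 dropped from 92.9 to 78.2, Klf9 from 76.4 to 52.9, Klf4 from 68.0 to 47.4 and Klf2 from 38.9 to 27.9.

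**Figure D3:**
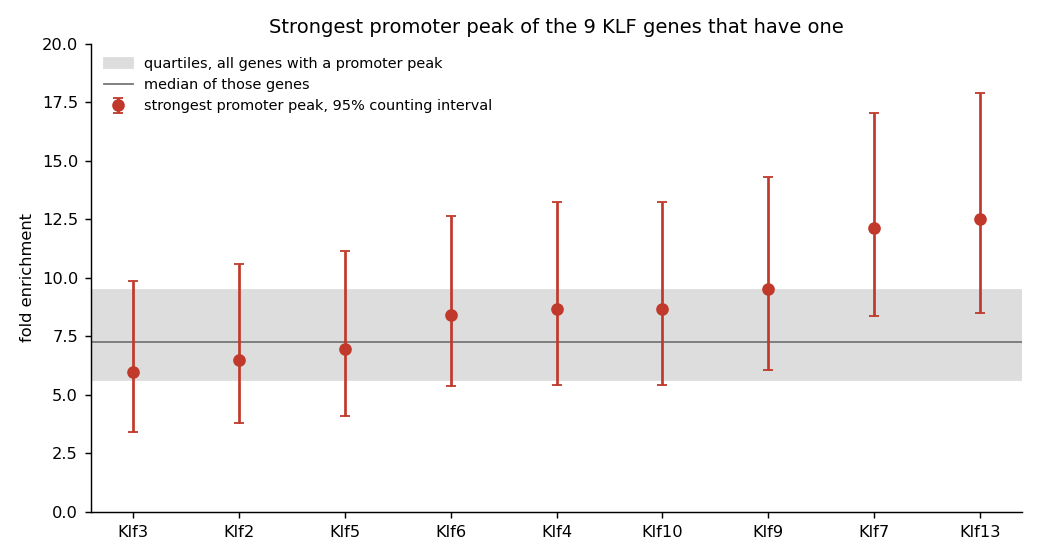
Fold enrichment of the strongest promoter peak (points) with its 95% counting interval (bars) for the 9 KLF genes with a promoter peak, over the quartiles (band) and median (line) of all genes with one. Klf7 and Klf13 lie above the band at 12.14 and 12.54, and all intervals overlap.

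Peak density differed more widely between the loci. It ran from 0 per 10 kb at Klf15 and 0.285 at Klf4 through 0.867 (Klf9), 0.985 (Klf7), 1.19 (Klf10), 1.37 (Klf2), 1.57 (Klf13) and 2.09 (Klf5) to 2.78 (Klf3) and 2.94 (Klf6). The median was 1.28, against 0.562 over the loci of all protein-coding genes (quartiles 0.0901 and 1.25). Klf6 and Klf3 were at the 96.5 and 95.8 percentiles and held 6.99 and 6.18 times the density of their chromosomes, and Klf5 held 5.85 times that of its own. Klf4 was at the 36.3 percentile with 0.669 times the density of its chromosome. Flank peaks count toward these densities, and 20 of the 51 lay nearest a start site of the KLF gene itself. That held for 1 of 17 flank peaks at Klf6 and 0 of 8 at Klf3. Of 45 pairs of loci, 16 had Poisson intervals that did not overlap, 8 of them against Klf15 and 4 against Klf4. Neighbours in the order overlapped. Many peaks lie in chains, so Poisson intervals, which treat peaks as independent, may be too narrow.

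**Figure D4:**
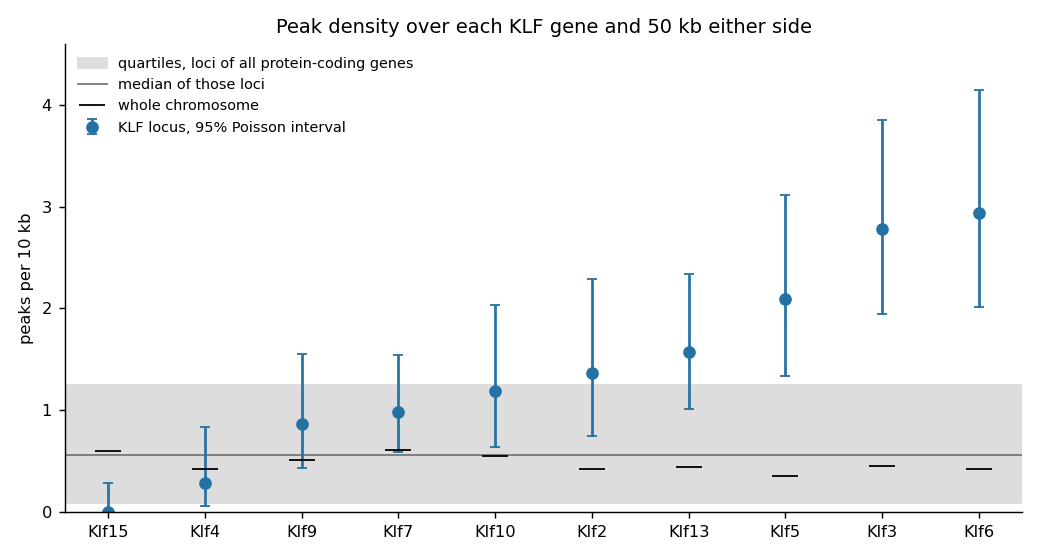
Peaks per 10 kb over each KLF gene with 50 kb either side (points, Poisson 95% intervals), ordered by density, with the density of the whole chromosome (dashes) and the quartiles (band) and median (line) over the loci of all protein-coding genes. The intervals of Klf5, Klf3 and Klf6 lie wholly above the band, which ends at 1.25.

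Peaks more than 1 kb from a start site were joined across short gaps and ranked by summed fold enrichment times width, a way of finding large enhancer clusters. Of 20840 clusters, 864 passed the slope limit, and 2 of 10 KLF genes were overlapped by one (Klf6 and Klf3), against 4.45% of all protein-coding genes. The call for Klf6 was lost with a −log10 q of at least 5 and with gaps within 5 kb, which left Klf3 alone, and with the strongest 25% of peaks, which gave Klf3 and Klf13. The Klf6 cluster had rank 407 with 30 peaks over 46.9 kb, and the Klf3 cluster had rank 534 with 28 peaks over 28.4 kb. Just outside the limit was Klf13 at rank 903, with 22 peaks over 40.1 kb. Klf5 (rank 1860) and Klf7 (rank 2195) followed.

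Motifs were counted on both strands in 200 bp windows around the summits. KLF/SP boxes were searched as CACCC-type (GGGTGGG) and GC-type (GGGCGGG). At least 1 was found in 28 of 176 KLF windows (15.9%, Wilson 95% interval 11.2 to 22.0%), against 8.24% of the windows of the whole list. The CACCC-type was found in 14.2% (9.81 to 20.1%), against 6.59%, and the GC-type in 1.71%, against 1.94%. At promoters 26.5% of KLF windows had a box (14.6 to 43.1%), against 12.1% in the list, and elsewhere 13.4% had one (8.74 to 20.0%), against 7.15%. Windows of the same length 1500 bp either side of the same summits had a box in 15.1%. Such windows can fall on neighbouring peaks, and their share over the whole list is not given. They therefore cannot show whether the share was particular to the summits. GC content of the KLF windows had a median of 46.5%, against 45.5% in the list, and the list's share weighted to the GC content of the KLF windows was 9.21%.

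Klf13 had boxes in 7 of 24 windows, Klf3 in 4 of 36, Klf6 in 4 of 32, Klf7 in 4 of 19, Klf9 in 3 of 11, Klf10 in 3 of 13, Klf2 in 2 of 14, Klf5 in 1 of 24 and Klf4 in 0 of 3. For the 7 other motifs searched, the list's share lay inside the interval of the KLF windows. The E-box bound by MYOD1, the myogenic master factor, was searched as CAGCTG and found in 9.09% of KLF windows, against 9.97% of the list. The motif of the growth-responsive AP-1 factors, TGANTCA, was found in 6.82%, against 7.99%. For the DNA contacts of PAX3-FOXO1, the core of the PAX paired domain (GTCACGC) was found in 0.568% of the KLF windows and in 0.537% of those of the list, and the homeodomain dimer of PAX3 was searched as well. The forkhead motif TGTTTAC was found in 2.27%, against 3.25%. The ETS motif CCGGAAG was found in 1.136%, against 1.197%. The GATA motif, searched as AGATAA, was found in 14.2%, against 11.1%. The dimer was found in 0 of 176 windows, which allows a share of up to 2.14%, against 0.435% in the list. Windows of neighbouring peaks lie close together, and all intervals cover counting error only.

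Of the 10 genes, 8 were matched in the RefSeq promoter table, and Klf5 and Klf10 were not. In the 250 bases before the start site, 6 of the 8 held a KLF/SP box, against 33.7% of the 32851 promoters of the table. The CACCC-type was in 4 (Klf2, Klf3, Klf7 and Klf13) and the GC-type in 5 (Klf2, Klf3, Klf4, Klf13 and Klf15), against 15.8% and 23.4% of all promoters. Klf3 held 2 CACCC-type and 4 GC-type boxes, and Klf6 and Klf9 held none. The 8 promoters had a median of 23.5 CpG dinucleotides, against 6 over the table.

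Of the 16 other KLF and SP genes, 5 had a promoter peak (31.3%, 14.2 to 55.6%), against 45.6% of all genes and 53.0% of genes with similar promoter CpG content, both inside the interval. The highest was Sp2 at 10.95 on 36 fragments, followed by Sp3 at 10.4, Klf16 at 5.98 and Sp6 at 5.65, and the lowest was Sp4 at 5.57. Promoter peaks were not listed for Klf1, Klf8, Klf11, Klf12, Klf14, Klf17, Sp1, Sp5, Sp7, Sp8 and Sp9. Klf12, a CtBP-binding repressor like Klf3, had 23 gene body peaks in a long gene, with 0.462 peaks per 10 kb over its locus, against 2.78 at Klf3.

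**Figure D5:**
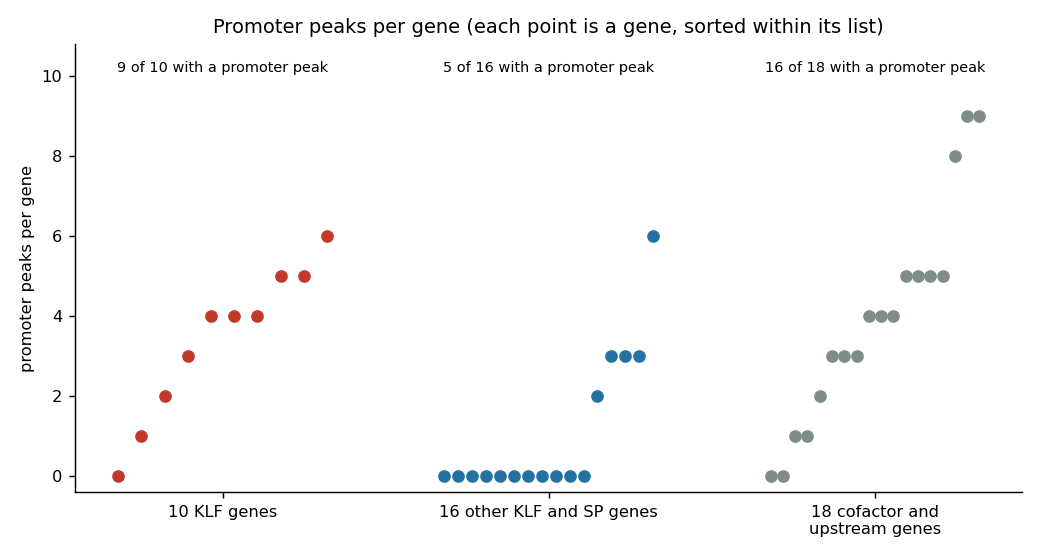
Promoter peaks per gene (vertical axis) for the 10 KLF genes, the 16 other KLF and SP genes and the 18 cofactor and upstream genes, each point being a gene sorted within its list. Counts with a promoter peak were 9 of 10, 5 of 16 and 16 of 18.

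Among genes for partners of the KLFs, 16 of 18 had a promoter peak (88.9%, 67.2 to 96.9%), against 45.6% of all genes and 68.0% of genes with similar promoter CpG content, the latter inside the interval. They comprised 8 of 9 cofactors (CtBP, SIN3, deacetylases and acetyltransferases) and 8 of 9 genes upstream of KLF expression (the MEKK-MEK5-ERK5 cascade, MEF2 factors, the glucocorticoid receptor and serum response factor). The highest was Srf, the serum response factor, at 11.25 on 25 fragments, and the lowest was the acetyltransferase gene Crebbp at 4.36 on 9 fragments. The deacetylase gene Hdac1 and Mef2c, a MEF2 factor gene of muscle and endothelium, had no promoter peak.

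The cell identity in the label was checked with marker genes. A promoter peak was listed for 1 of 12 myogenic markers (Myf6, 5.98 on 13 fragments), 1 of 10 endothelial markers (Cd34, 9.10) and 1 of 7 immune markers (Cd68, 5.91), against 45.6% of all genes. At similar promoter CpG content the share of all genes was 47.5% for the myogenic, 30.6% for the endothelial and 14.6% for the immune list. Promoter peaks at Myod1, Myog, Pecam1, Cdh5 and Ptprc were not listed, and the promoter peaks of this library did not show the labelled cell type. At least 1 peak in the span or 50 kb either side was listed for 9 of 12 myogenic, 8 of 10 endothelial and 5 of 7 immune markers. The share of all genes was 77.9%. Flank peaks of the myogenic markers ran from 0 (Myog, Pax7, Mef2c and Msc) through 11 (Myod1) and 29 (Myf5) to 35 (Myf6). Myf5 and Myf6 are both on chromosome 10, and how many peaks their windows share was not counted. Those of the endothelial markers ran from 0 (Kdr and Sox17) to 15 (Cd34). Among immune markers they ran from 0 (Adgre1 and Itgam) to 22 (Cd68), so flank peaks did not show the labelled cell type either. The part of other cell types in the KLF values was not tested.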

How the data were processed

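CUT&RUN for H3K27ac was analysed from 1 peak list, that of MCP H3K27ac replicate 5. The methods of the study name bowtie and an early MACS release for alignment and peak calling against IgG, with problematic regions and a region near Col19a1 removed, whereas the submitters' processing notes name BWA, SAMtools and MACS2, so which tools made the list is not settled here. The build was mm10. The authors' deposited values were a score, a fold enrichment, a −log10 p and a −log10 q for each peak. Fold enrichment is a ratio of summit fragments to IgG background, with the same constant added to both. All these values were used as deposited, to describe and rank peaks. The largest q was 0.0471. Of 122959 peak numbers, 584 were absent from the list.

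The list states no depth. Fragments were therefore recovered from the fold and p columns with a scale of 0.885 between libraries (100% of peaks whole within 0.01, 96.7% with a single solution). They numbered 13 per peak at the median (quartiles 10 and 17), and 1 peak, at no KLF locus, could not be solved. Recovered fragments are inferences from the caller's formula, not molecule counts, so intervals cover counting error only and hold the IgG background fixed.

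Start sites (31603) were those of curated RefSeq transcripts on GRCm38.p6. A peak was assigned to a class with at least 1 bp of overlap, promoter first, then gene body, then flank. Backgrounds and density percentiles covered 21000 protein-coding genes, and promoter percentiles the 9569 with a promoter peak. Shares at similar promoter CpG content were averaged over those of 10 equal groups of all genes, by CpG count, in which the genes of a list fell. Clusters were joined within 12.5 kb after leaving out peaks within 1 kb of a start site. Counts were given with exact Poisson and shares with Wilson 95% intervals. With 1 list no test between groups was made. Alternatives were a −log10 q minimum of 5, the strongest 25% of peaks, summit overlap, promoters of 1 kb, flanks of 20 and 100 kb, other windows and other cluster settings. All 10 genes were named. Of the other lists, the genes with the highest and lowest promoter value and those without a promoter peak were named, and further names were added after their values were seen. Members and lists were chosen with earlier results of these data known. Recovery, classes and clusters were tested on simulated data. Python 3.11.15, numpy 2.4.6, pandas 2.3.3, scipy 1.17.1, pysam 0.24.0 and matplotlib 3.10.9 were used.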

Additional observations from a re-analysis of the deposited data

How the results depend on the processing

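With 1 list and 7 to 37 fragments per KLF peak, single values were imprecise, and no replicate could be left out. No paired analysis was possible because the analysis used 1 peak list. Of 61 values recomputed under alternatives, 36 stayed close to the reported value, 25 moved and none reversed. The 25 include the percentiles of 8 KLF promoters under summed fold enrichment times width, of which Klf4 fell below the median and Klf3 and Klf5 rose above it. The number of KLF genes with a promoter peak was 9 under each alternative except the strongest 25% of peaks, where Klf3 also lost its promoter peaks (8 of 10, against 29.3% of all genes). A −log10 q of at least 5 left 45 gene body and 21 flank peaks, a median density of 0.503 per 10 kb and 1 gene in a top cluster (Klf3). The strongest 25% of peaks left 15 promoter, 23 gene body and 11 flank peaks, a median density of 0.216, 2 other KLF and SP genes with a promoter peak and a KLF/SP box in 22.4% of windows (8.56% in the list), with Klf3 and Klf13, not Klf6, in a top cluster. Promoters of 1 kb held 18 peaks, and the median of the strongest promoter peaks was 6.94 instead of 8.67. Flanks of 20 and 100 kb held 18 and 133 peaks, and the wider flank of Klf15 held 15. Windows of 100 bp held a box in 7.96% of cases, against 4.84% in the list. Joining within 5 kb left 1 gene in a top cluster (Klf3), and ranking clusters by their number of peaks gave 4 (Klf3, Klf5, Klf6 and Klf13). Fewer peaks remain by construction under the stricter thresholds and smaller regions, and the cause of the other changes was not tested. The GC-weighted share of the list and the shares of genes with similar promoter CpG content in the other gene lists were added after seeing the data.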
